A study of Rattus norvegicus with 10 samples.

Results

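Zonation markers are genes that hepatocytes express in some parts of the liver lobule and not in others, and 10 of them were followed here in rat liver, 7 pericentral and 3 periportal. The pericentral set is Glul, Oat, Rhbg, Slc1a2, Axin2, Lgr5 and Tbx3, and the periportal set is Hal, Gls2 and Cdh1. They were chosen by name, and every probe set whose platform annotation gave exactly 1 of these symbols was kept. This yielded 16 probe sets for 9 genes, 6 pericentral and 3 periportal, among 31042 probe sets and 14217 named genes. Rhbg, an ammonia transporter, had no such probe set, so its expression was not analysed here. Total liver RNA came from 10 male Sprague-Dawley rats, 5 exposed for a short time to effluent of factories that make bulk drugs and 5 controls, and each rat had its own Affymetrix array. The labels give neither dose, length of exposure nor age, and the rats are outbred animals of 1 sex. Values are log2 expression per probe set as the authors normalised them with RMA, so a difference of 1 is a 2-fold change. Every piece of liver mixes all zones and cell types, so fewer cells of a zone and less RNA per cell cannot be told apart. The 3' to 5' log2 ratio of the Gapdh and beta-actin control sets was used to follow RNA quality on each array.

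Blood enters the liver lobule at the portal vein and leaves at the central vein, and hepatocytes along this path divide the work. Cells around the central vein receive Wnt signals from the endothelium there, which stabilise beta-catenin and switch on pericentral genes through TCF and LEF factors at the DNA. Glul makes glutamine from the ammonia that upstream cells leave behind, with Slc1a2 importing glutamate and Oat linking ornithine to glutamate. Axin2, Lgr5 and Tbx3 report or amplify the Wnt signal itself. Cells near the portal vein take up amino acids first. There Gls2 releases ammonia from glutamine for the urea cycle and Hal starts the breakdown of histidine, while Cdh1, E-cadherin, holds these cells to one another and is made by bile duct cells too.

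Exposed and control livers did not differ in a zonation gene past the test. At a threshold of 0.05 after adjustment, 0 of the 16 passed limma's test, as did 0 of all 31042 (0.0%). The smallest adjusted p among them was 0.879, and 1 had an unadjusted p under 0.05, Slc1a2, which was lower in exposed livers. Over all probe sets 5.46% had one, 3.07% higher and 2.39% lower. All 16 intervals excluded a 2-fold change either way and 14 excluded a 1.5-fold change. Of all 31042 probe sets, 30889 excluded a 2-fold and 30202 a 1.5-fold change, so this is not particular to the members. The groups overlapped on every one of the 16 probe sets, where 0.892% of all probe sets did not overlap. No opposing relation of a pericentral with a periportal gene between animals passed the test. The 18 pairs across the zones had a median Pearson r of 0.0062, with 8 negative and 10 positive.

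In 3 pericentral members a window at an annotated start holds the core of the TCF/LEF motif, the letters CTTTGAT. These windows are shown because Wnt signalling is what defines this zone. RefSeq windows of assembly GRCr8, each 300 bases long with 250 before and 50 after an annotated start, were found for 6 of the 10 genes (Oat, Rhbg, Slc1a2, Gls2, Axin2 and Glul), 9 windows in all. Capitals mark the core on either strand (CTTTGAT, or its reverse complement ATCAAAG), and each sequence is written 5′ to 3′ on the strand of its gene, the plus strand for these 3. In order, they are Axin2 at chr10:94398535-94398834, Glul at chr13:68519250-68519549 and Slc1a2 at chr3:109507697-109507996.
Axin2: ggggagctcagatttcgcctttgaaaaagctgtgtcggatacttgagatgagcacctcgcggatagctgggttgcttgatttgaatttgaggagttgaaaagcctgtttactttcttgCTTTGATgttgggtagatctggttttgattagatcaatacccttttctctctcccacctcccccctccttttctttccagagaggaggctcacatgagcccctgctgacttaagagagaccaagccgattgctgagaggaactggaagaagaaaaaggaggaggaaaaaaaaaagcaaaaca
Glul: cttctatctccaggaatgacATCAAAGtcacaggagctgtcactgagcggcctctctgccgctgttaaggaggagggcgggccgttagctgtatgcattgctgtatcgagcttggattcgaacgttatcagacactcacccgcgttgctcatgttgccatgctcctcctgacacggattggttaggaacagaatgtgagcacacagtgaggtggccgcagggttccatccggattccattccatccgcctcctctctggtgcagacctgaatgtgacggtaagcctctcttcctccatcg
Slc1a2: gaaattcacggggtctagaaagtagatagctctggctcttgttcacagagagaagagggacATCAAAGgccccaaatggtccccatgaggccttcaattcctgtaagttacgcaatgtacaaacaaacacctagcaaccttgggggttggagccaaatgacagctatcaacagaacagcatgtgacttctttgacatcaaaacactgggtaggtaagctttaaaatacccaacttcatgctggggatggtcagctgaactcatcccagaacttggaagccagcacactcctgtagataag
Counted from the annotated start in each window shown, the core lies at bases -132 to -126 for Axin2, -230 to -224 for Glul and -189 to -183 for Slc1a2. Glul and Slc1a2 each have another annotated start whose window lacks it. The Glul window shown is at the first base of the gene, chr13:68519500. The Slc1a2 gene begins at chr3:109460109, where the window lacks the core, and the window shown lies inside the gene. The Axin2 window also lies inside its gene, which begins at chr10:94393379. Altogether 3 of 7 pericentral windows and 0 of 2 periportal windows, both of Gls2, held the core, against 3.63% of 33469 promoter windows in the rat table. The letters AAGTCCA, part of the motif of the hepatocyte factor HNF4, searched on both strands, were in 0 of the 9 windows and in 3.90% of all. A match describes the letters of a window and is not a binding site.

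Glul, glutamine synthetase, the classic marker of the hepatocytes that ring the central vein, had the smallest SD within groups among the brightest probe sets of the members. This probe set read 11.51, 11.36, 11.32, 11.28 and 11.34 in exposed animals 1 to 5, against 11.40, 11.38, 11.41, 11.28 and 11.46 in control animals 1 to 5. The groups covered nearly the same range, with the highest value in exposed animal 1 and the lowest values in exposed animal 4 and control animal 4. The difference was -0.02 ± 0.06 on the log2 scale (SE; 95% interval -0.16 to 0.11; limma adjusted p 0.971). That SD was 0.078, and 10.4% of all probe sets varied less, but the other probe sets of Glul had SDs of 0.17 and 0.13. They differed between groups by -0.06 and 0.01, and the 3 agreed only in part between animals, with r of 0.24, 0.67 and 0.72 over 10 animals after removal of group means. On one of them (1367632_at) control animal 5 read 11.66, apart from the other controls at 11.22 to 11.34.

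Oat, ornithine aminotransferase, varied most between animals among the brightest probe sets of the members. It read 11.63, 12.10, 12.48, 11.92 and 12.39 in exposed animals, against 11.24, 12.24, 12.46, 12.21 and 11.81 in controls. Animal 1 was the lowest of each group, and the highest and lowest of the 10 livers were 2.35-fold apart. Its SD within groups was 0.42, larger than that of 98.3% of probe sets. The difference between groups was 0.11 ± 0.22 (SE; 95% interval -0.36 to 0.58; limma adjusted p 0.963), and it was -0.077 without control animal 1. With RNA quality as a covariate it was 0.18.

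Slc1a2, the glutamate transporter also known from astrocytes, had the smallest p of the members. It read 6.72, 6.46, 6.67, 6.14 and 6.68 in exposed animals, against 6.69, 7.06, 6.97, 7.07 and 6.59 in controls. Controls 2, 3 and 4 were above every exposed animal, while controls 1 and 5 lay within the exposed range. The means were 6.54 ± 0.24 in exposed and 6.87 ± 0.22 in control livers (SD, n = 5 each), a difference of -0.34 ± 0.13 (SE; 95% interval -0.61 to -0.06) with a limma adjusted p of 0.879. The unadjusted limma p was 0.0196. Leaving out exposed animal 4 gave 0.0502, control animal 2 gave 0.0508 and control animal 4 gave 0.0514. Without control animal 5 the difference was -0.41 (unadjusted limma p 0.0067, adjusted 0.928). With RNA quality as a covariate it was -0.40 (unadjusted limma p 0.012, adjusted 0.940). A dimmer probe set of the gene, between 2.97 and 3.56 in all livers, differed by -0.14 ± 0.09, or -0.06 without control animal 3.

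The genes of Wnt feedback overlapped between the groups as well. Axin2, an inhibitor that beta-catenin itself switches on, read 5.99, 5.88, 6.28, 6.04 and 5.91 in exposed animals, against 6.13, 6.10, 5.78, 6.37 and 6.53 in controls. Controls 4 and 5 were the highest of all livers and control 3 was the lowest, so the control range enclosed every exposed animal. The difference was -0.16 ± 0.13 (SE; limma adjusted p 0.910). Leaving out control animal 5 gave -0.07 and control animal 3 gave -0.26, where its unadjusted p was 0.0329, and -0.08 with the RNA quality ratio as a covariate.

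Tbx3, a transcription factor of pericentral cells, has 4 probe sets, with differences between -0.23 and -0.03 and limma adjusted p values between 0.927 and 0.985. The brightest read 5.98, 5.79, 6.19, 6.01 and 6.01 in exposed animals, against 5.90, 6.10, 5.97, 6.26 and 6.13 in controls. The most variable probe set of the gene (1393160_at) ran from 5.32 in exposed animal 4 to 6.58 in control animal 4, with an SD within groups of 0.45. Its difference of -0.23 was -0.10 without exposed animal 4, -0.41 without control animal 1 and -0.10 with RNA quality as a covariate. Without control animal 4, differences were 0.0049 on 1377230_at and 0.041 on 1381464_at, above 0 on both. The probe sets of Tbx3 correlated with one another between 0.26 and 0.80 over animals, so they rank the livers differently. Lgr5, the R-spondin receptor that strengthens the Wnt signal, read 3.97, 4.03, 4.00, 3.83 and 4.10 in exposed animals, against 3.61, 3.99, 3.99, 3.85 and 3.89 in controls. Its difference was 0.12 ± 0.08 (SE; limma adjusted p 0.894), or 0.16 without exposed animal 4 and 0.06 without control animal 1, the lowest liver. Lgr5 and 4 other probe sets (2 of Tbx3, and the dimmer ones of Slc1a2 and Cdh1) were below the median probe set, and 11 of the 16 were above it. Whether the dim ones measured their transcripts is unknown.

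**Figure D1:**
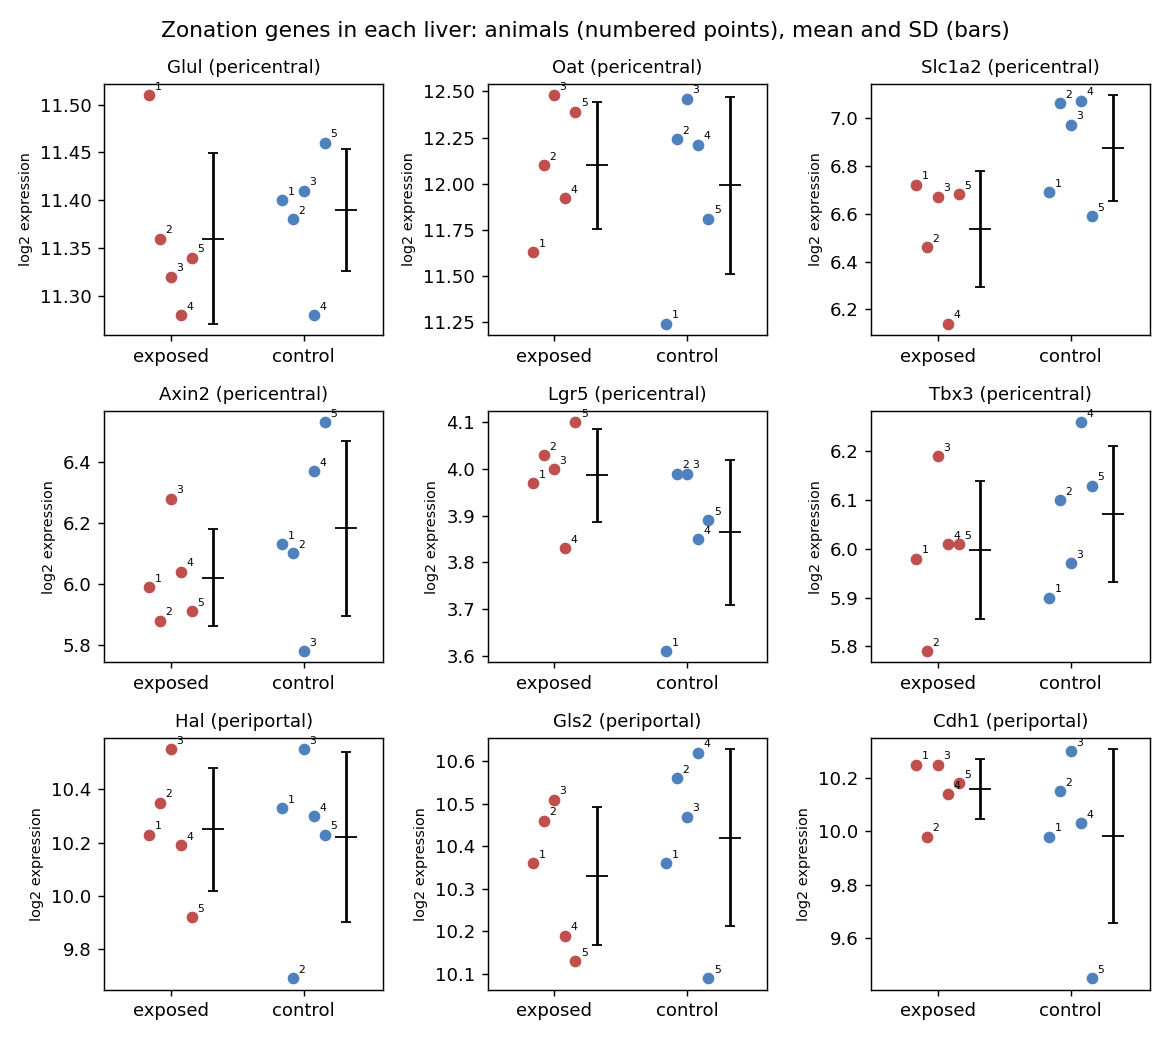
Log2 expression of the brightest probe set of each gene in each liver (vertical axes, one scale per gene), exposed animals left of controls; numbered points are animals, horizontal bars the means and vertical bars the SD (n = 5 each). Groups overlap in every panel; Slc1a2 averaged 6.54 in exposed and 6.87 in control livers, and control animal 5 read 9.45 for Cdh1, below the 9 other livers.

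Periportal genes showed the same overlap. Hal, histidine ammonia-lyase, read 10.23, 10.35, 10.55, 10.19 and 9.92 in exposed animals, against 10.33, 9.69, 10.55, 10.30 and 10.23 in controls. Control animal 2 was the lowest liver, and animal 3 the highest of each group at the same value. The difference was 0.03 ± 0.15 (SE; 95% interval -0.29 to 0.35; limma adjusted p 0.987), which became -0.10 if control animal 2 was left out and 0.11 if control animal 3 was. With RNA quality as a covariate it was 0.09. Gls2, liver-type glutaminase, read 10.36, 10.46, 10.51, 10.19 and 10.13 in exposed animals, against 10.36, 10.56, 10.47, 10.62 and 10.09 in controls. Control animal 5 was the lowest and control animal 4 the highest. Its difference was -0.09 ± 0.11 (SE; limma adjusted p 0.936), which became -0.17 if control animal 5 was left out and -0.04 if control animal 4 was.

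Cdh1 read 10.25, 9.98, 10.25, 10.14 and 10.18 in exposed animals, against 9.98, 10.15, 10.30, 10.03 and 9.45 in controls. Control animal 5 stood below all other livers. The difference was 0.18 ± 0.13 (SE; limma adjusted p 0.899), or 0.26 without control animal 3 and 0.04 without control animal 5. That animal also had the highest 3' to 5' log2 ratio, at 0.735 with the other arrays between 0.494 and 0.626. With this ratio as a covariate the Cdh1 difference was 0.07. The dim probe set of Cdh1, between 2.50 and 2.84, differed by 0.10 ± 0.06.

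**Figure D2:**
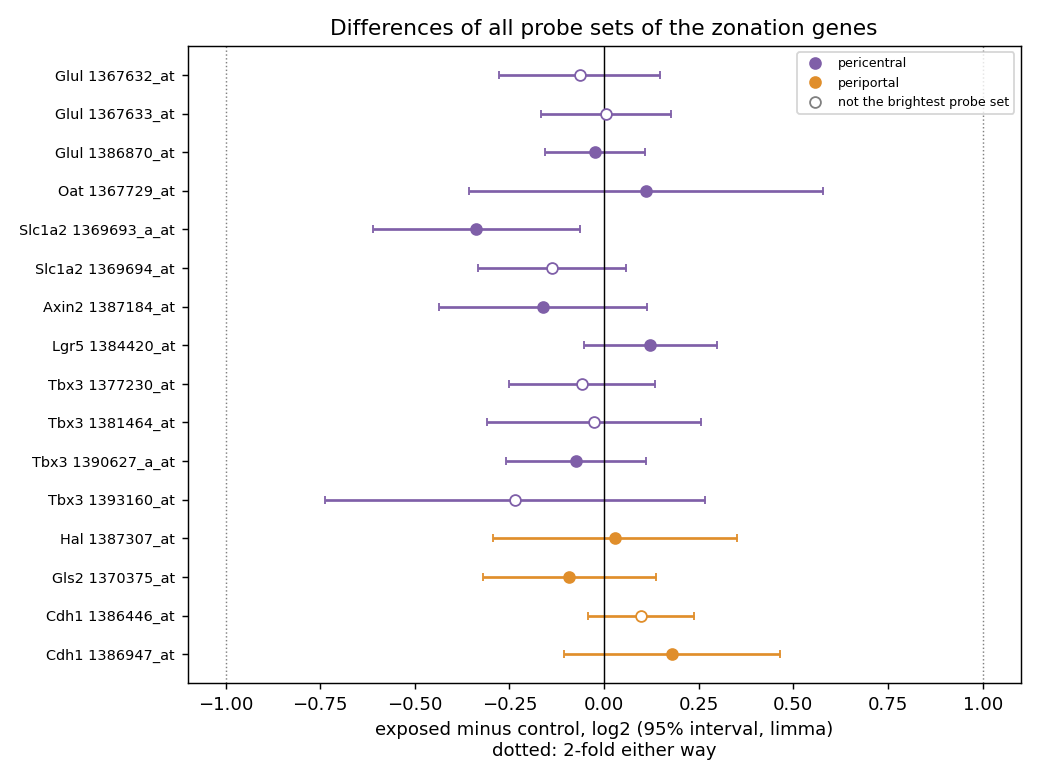
Exposed minus control on the log2 scale (horizontal axis) for all 16 probe sets, with 95% intervals from limma; filled points are the brightest probe set of a gene, open points its others, and dotted lines mark 2-fold. All intervals lie within the dotted lines, as do those of 30889 of all 31042 probe sets, and 1 of 16, Slc1a2 at -0.34, leaves out 0.

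Read by zone, 4 of 6 pericentral genes were lower and 2 higher on average in exposed livers, with a median difference of -0.05. Of the 3 periportal genes 1 was lower and 2 higher, with a median of 0.03. The median over all 14217 genes was -0.0021, and no test of the zone medians was made. Leaving out control animal 1 gave a pericentral median of -0.10, and leaving out exposed animal 2 gave -0.02. Leaving out control animal 2 gave a periportal median of -0.06, and leaving out control animal 3 gave 0.11.

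Opposite variation of the zones was examined gene by gene over the 10 animals, with group means removed. Of the 36 pairs of the 9 genes, 0 passed a threshold of 0.05 after Benjamini-Hochberg adjustment over the 36 (exact permutation of animals within groups, two-sided, Pearson or Spearman), and the smallest Pearson adjusted p was 0.448. Unadjusted, 3 pairs had a Pearson p under 0.05, all of them positive. The 15 pairs within the pericentral set had a median r of 0.14 (range -0.42 to 0.79). Their median Spearman rho was -0.0061, below the 0.12 of the pairs between zones, so the order of the medians depends on the measure. The 3 periportal pairs had a median r of 0.21 and a median rho of 0.31. The 18 pairs between zones ran from -0.62 to 0.64. Pairs share their genes and arrays and are not independent.

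Oat and Lgr5 had the highest correlation (r = 0.79, exact permutation p 0.0201, adjusted 0.448; Spearman rho = 0.73, p 0.0311, adjusted 0.560; 10 animals). Control animal 1 was the lowest liver for both genes, and r was 0.54 without it and 0.64 without the 2 animals farthest in Oat, exposed animal 1 and control animal 1. Within exposed animals r was 0.53 and within controls 0.91, with 5 animals in each. The only probe set of Lgr5 was below the median probe set, and whether it measured its transcript is unknown. Axin2 and Tbx3 followed at r = 0.70 (exact permutation p 0.0340, adjusted 0.448) and rho = 0.77 (p 0.0193, adjusted 0.560), with r of 0.83 without control animals 3 and 5. This pair kept its sign in both groups, at 0.88 in exposed animals and 0.65 in controls. Of the other pairs among the genes of Wnt feedback, Axin2 with Lgr5 had r = -0.22 and Lgr5 with Tbx3 had r = 0.19.

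Across the zones, the pair with the smallest p was positive. Pericentral Slc1a2 and periportal Cdh1 had r = 0.62 (exact permutation p 0.0373, adjusted 0.448) and rho = 0.65 (p 0.0663, adjusted 0.796), with r of 0.63 without exposed animal 4 and control animal 5. Slc1a2 and Gls2, which handle glutamate and glutamine in opposite zones, had r = 0.64 (exact permutation p 0.0615, adjusted 0.529; rho = 0.60, p 0.0963, adjusted 0.851), and 0.28 without exposed animal 4 and control animal 5. The most negative pair was Axin2 with Cdh1, at r = -0.62 (exact permutation p 0.150, adjusted 0.677; rho = -0.33, p 0.399, adjusted 0.925). It was 0.37 without control animals 3 and 5, 0.61 in exposed animals and -0.86 in controls, so it rests on those controls. Glul, made at the central vein, and Gls2, made at the portal end, had r = -0.26 (exact permutation p 0.466, adjusted 0.925; rho = -0.41, p 0.266, adjusted 0.925), and -0.28 without exposed animal 1 and control animal 4. Its r was 0.23 in exposed animals and -0.82 in controls, and -0.015 if control animal 5 alone was left out. Without control animal 5 the median r between zones was 0.33 instead of 0.0062.

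**Figure D3:**
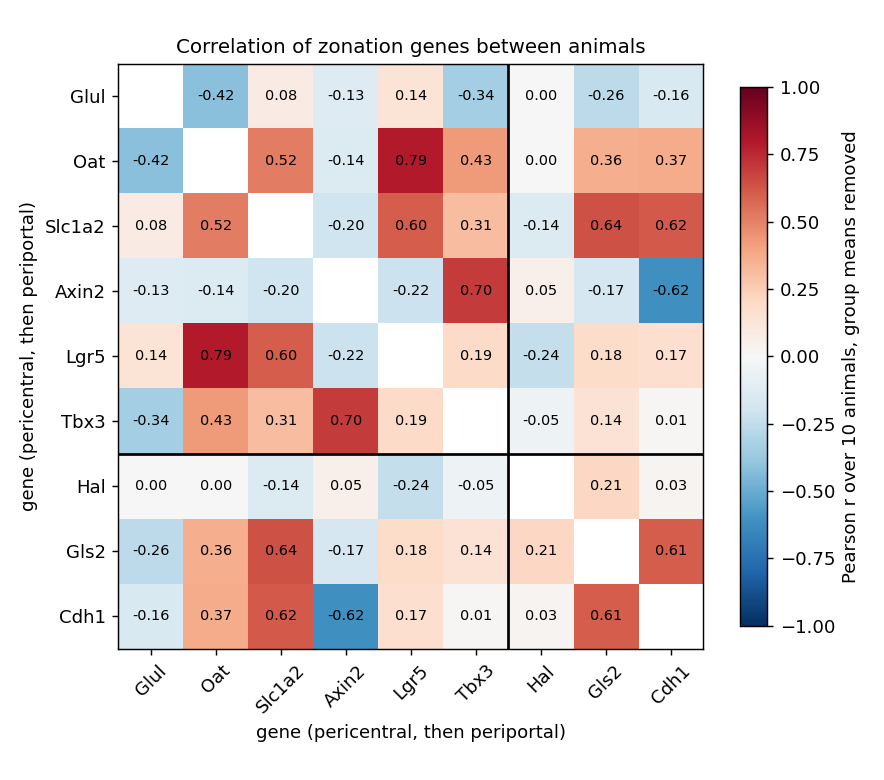
Pearson r between the 9 genes (rows and columns, pericentral then periportal, split by black lines) over 10 animals with group means removed; red is positive and blue negative. The block between zones mixes both signs, with -0.62 for Axin2 with Cdh1 and 0.64 for Slc1a2 with Gls2, and 0 of 36 pairs passed the test.

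**Figure D4:**
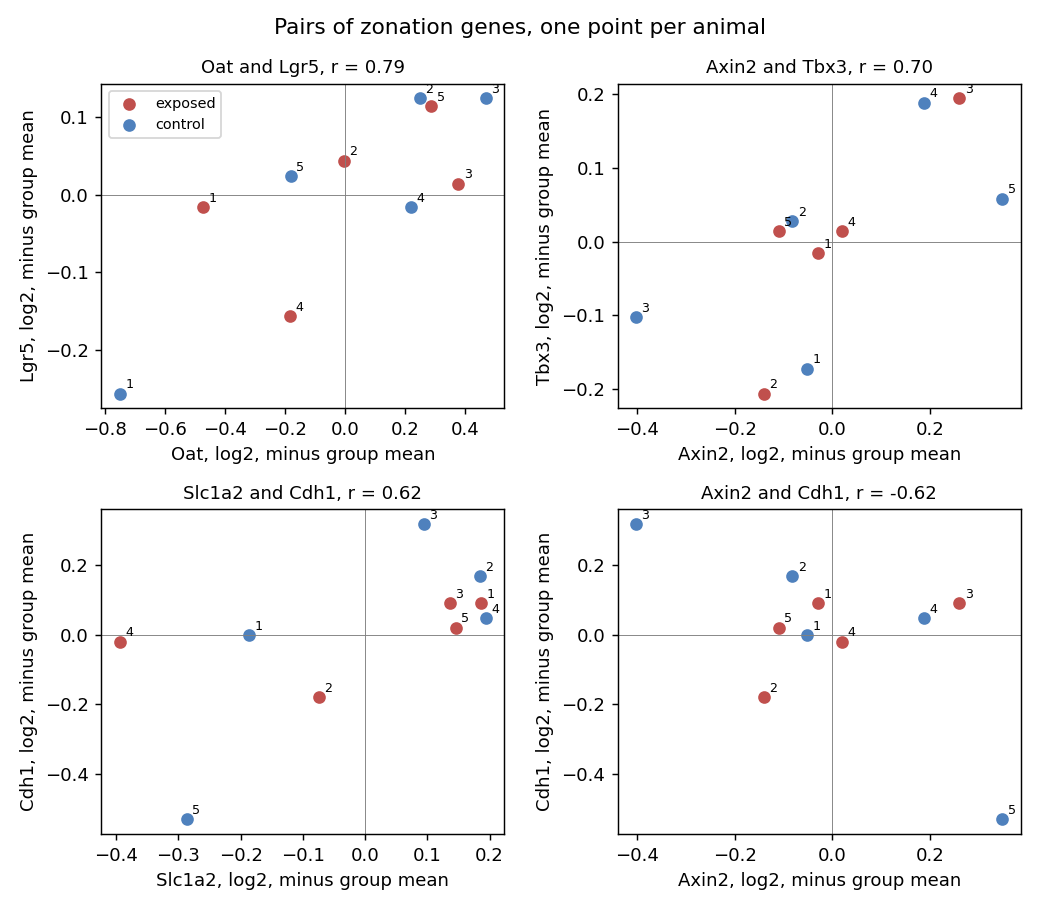
Values of 4 pairs of genes (log2, minus the group mean; one numbered point per animal, exposed red, control blue), the 3 pairs with an unadjusted p under 0.05 and the most negative pair. Control animal 1 is the low point for Oat with Lgr5, and control animals 3 and 5 are the 2 ends for Axin2 with Cdh1. The probe set of Lgr5 is below the median probe set.

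Genes whose brightest values tracked Glul most closely, among 9658 other genes above the median probe set, were Commd8, Lpin2, Srsf2, Lrwd1 and Vps51, with r between 0.91 and 0.93 over 10 animals. Odf2, Uba2, Rara, Arsa and Stc2 ran most opposite, with r between -0.97 and -0.89. The Glul probe set used here had an SD within groups of only 0.078, and its r with the other probe sets of Glul was 0.72 and 0.67. For Hal the closest were Mkrn2, Fxyd1, Mindy3, Pklr and Zfp385a (0.91 to 0.95), and the most opposite Arf4, RT1-M3-1, Fam13b, Chmp5 and U2af2 (-0.97 to -0.90). These are the extremes of many genes over few animals and carry no p. No member of the wider zonation lists was among them.

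Wider zonation genes gave no call. Of 11 measured pericentral genes 3 were higher and 8 lower on average in exposed livers (median -0.11), with 0 past the adjusted test and 1 at an unadjusted p under 0.05. This was Slc13a3, a dicarboxylate transporter, which read 8.69, 8.79, 8.71, 8.55 and 8.51 in exposed animals, against 9.15, 8.90, 8.84, 8.75 and 9.15 in controls. Only control animal 4 lay within the exposed range, and the difference was -0.31 ± 0.09 (SE; limma adjusted p 0.879). Cyp1a2, a P450 enzyme of the pericentral zone, differed by -0.23 ± 0.12, Por, which passes electrons to P450 enzymes, by -0.24 ± 0.21, and the nuclear receptor CAR (Nr1i3) by -0.25 ± 0.24. Cyp1a2 differed by -0.12 without exposed animal 5, Por by -0.11 without exposed animal 4 and Nr1i3 by -0.11 without exposed animal 5. Leaving out exposed animal 2 gave -0.29 for Cyp1a2 and -0.40 for Nr1i3, and leaving out control animal 1 gave -0.37 for Por. With the RNA quality ratio as a covariate Nr1i3 differed by -0.0080 and Por by -0.14.

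Among 14 measured periportal genes, 7 were higher and 7 lower (median -0.02), with 0 past the adjusted test. Sds, which breaks down serine for gluconeogenesis, had an unadjusted p under 0.05, at 6.99, 8.01, 7.81, 7.67 and 8.03 in exposed animals, against 7.77, 8.37, 8.19, 8.36 and 8.58 in controls. Exposed animal 1 was the lowest liver, and the difference was -0.55 ± 0.19 (SE; limma adjusted p 0.879). For Sds it was -0.37 without exposed animal 1, -0.67 without control animal 1 and -0.42 with RNA quality as a covariate. The urea cycle enzymes Asl and Otc differed by -0.11 ± 0.08 and 0.08 ± 0.07, and Hsd17b13, a lipid droplet enzyme, by 0.09 ± 0.08. Asl differed by -0.05 without control animal 5 and -0.15 without control animal 1. Hsd17b13 differed by 0.04 without control animal 2 and 0.13 without control animal 3. With RNA quality as a covariate Asl differed by -0.03 and Otc by 0.13.

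Of 30 measured genes of the Wnt pathway, 12 were higher and 18 lower (median -0.01), with 0 past the adjusted test and 1 at an unadjusted p under 0.05. Fzd4, a Wnt receptor, differed by -0.28 ± 0.12 (limma adjusted p 0.879), but 1 of its 2 probe sets had the other sign. Fzd4 differed by -0.17 without exposed animal 5 and -0.33 without exposed animal 2. Dvl1, which relays the signal, differed by -0.12 ± 0.06, the co-receptor Lrp6 by -0.24 ± 0.15 and Apc, which helps destroy beta-catenin, by -0.15 ± 0.09. Lrp6 differed by -0.12 without exposed animal 1 and -0.35 without exposed animal 3. Apc differed by -0.09 without control animal 5 and -0.23 without control animal 1. With RNA quality as a covariate Lrp6 differed by -0.14 and Apc by -0.045.

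Genes that handle glutamine, ornithine and ammonia split evenly, with 8 of 16 higher and 8 lower (median -0.0037), and 0 passed the adjusted test. The 2 at an unadjusted p under 0.05 were Slc38a2, an amino acid transporter, at -0.38 ± 0.15 (limma adjusted p 0.879), and Slc25a15, the mitochondrial ornithine carrier, at -0.24 ± 0.11 (limma adjusted p 0.879), with a difference below 0 on all 6 of its probe sets. For Slc25a15 the unadjusted limma p was 0.04999, and it ran from 0.011 with the replicate number as a block to 0.19 with RNA quality as a covariate. Slc25a15 differed by -0.16 without control animal 5 and -0.31 without control animal 1. Slc38a2 differed by -0.29 without control animal 4, -0.49 without exposed animal 4 and -0.33 with RNA quality as a covariate. The aminotransferase Got1 differed by -0.27 ± 0.18, or -0.17 without control animal 3 and -0.39 without exposed animal 3. Glud1, glutamate dehydrogenase, differed by 0.08 ± 0.06. With RNA quality as a covariate Got1 differed by -0.10 and Slc25a15 by -0.14. Ftcd and Uroc1, which act after Hal in histidine breakdown, differed by -0.11 ± 0.10 and -0.08 ± 0.09. Ftcd differed by -0.05 without exposed animal 5 and -0.17 without exposed animal 3. Uroc1 differed by -0.02 without exposed animal 4 and -0.12 without exposed animal 2. The adhesion partners of cadherins showed no call, with Ctnnd1 at 0.09 ± 0.07, Ctnna1 at 0.03 ± 0.06, Jup at 0.01 ± 0.08 and the other hepatocyte cadherin, Cdh2, at -0.07 ± 0.11. Without control animal 5 Cdh2 differed by 0.02, without exposed animal 3 Ctnnd1 by 0.05, and without exposed animal 1 Ctnna1 by 0.01 and Jup by -0.06.

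**Figure D5:**
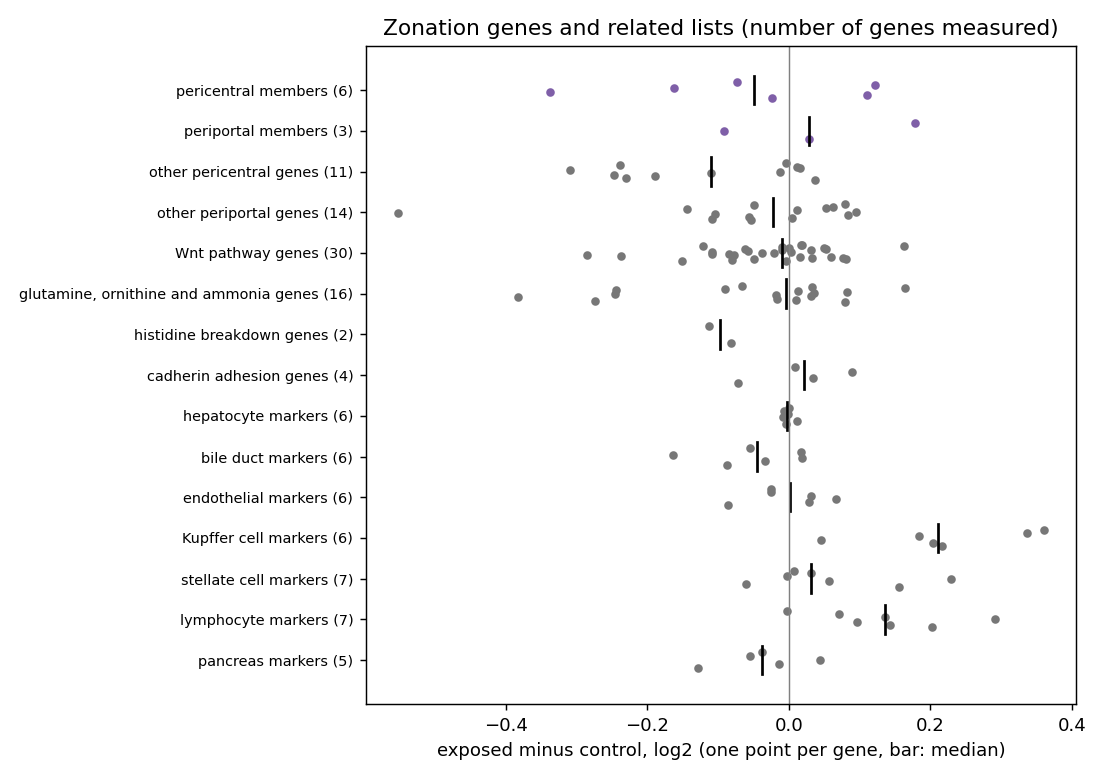
Exposed minus control on the log2 scale (horizontal axis), one point per measured gene and a black bar at the median of each list (number of genes in brackets); zonation members are purple. Pericentral members had a median of -0.05 and other pericentral genes of -0.11, and 0 of the genes drawn passed the adjusted test.

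Markers of the cell types in the samples overlapped between the groups. The mean log2 value of 6 hepatocyte markers, Alb and Ttr among them, lay between 14.42 and 14.49 in exposed livers and between 14.44 and 14.48 in controls. Bile duct markers, whose cells also make Cdh1, lay between 5.18 and 5.51 in exposed livers and between 5.25 and 5.41 in controls, with 3 of 6 above the median probe set. Their summed signal ran from 509.7 to 607.8 in exposed and from 510.9 to 676.4 in control livers. Endothelial markers lay between 8.31 and 8.71 in exposed livers and between 8.26 and 8.63 in controls. All 6 Kupffer cell markers were higher on average in exposed livers (median 0.21), and 6 of 7 lymphocyte markers (median 0.14), with 0 of either past the test. Of these, 1 lymphocyte marker had an unadjusted limma p under 0.05, Cd3d, at 0.20 ± 0.09 (SE; p 0.042, adjusted 0.879). Over all genes 6978 of 14217 were higher. Kupffer cell means overlapped, at 8.15 to 9.11 in exposed and 7.81 to 9.07 in control livers. Lymphocyte means did too, at 4.88 to 5.18 and 4.81 to 5.10, and only 1 of these 7 markers was above the median probe set. Control animal 5, the lowest for Cdh1 and Gls2, also had the lowest Kupffer cell mean of all livers, 7.81. The part of these cells in the values was not tested. Stellate cell markers ran from 7.90 to 8.03 in exposed and from 7.69 to 8.19 in control livers, and those of pancreas from 4.69 to 4.82 in exposed and from 4.70 to 4.94 in control livers.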

How the data were processed

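Liver RNA of 10 rats was measured on Affymetrix arrays. The submitters' processing notes name RMA and R 2.8.1 for the deposited log2 expression values per probe set. Values from 2.19 to 15.0 fit a log2 scale. RMA takes out shifts shared by most genes of an array. Arrays correlated between 0.991 and 0.996, with no duplicates, and precision is limited by their number.

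The table held 31099 probe sets, 57 of them Affymetrix controls that stayed out. Of the others 20826 named 1 gene, 436 several and 9780 none in the platform annotation. RefSeq's gene table held 20758 of them by Entrez number, with 0 symbols changed. Exposed arrays were set against control arrays in a linear model per probe set (R 4.3.3, limma 3.58.1, eBayes), giving two-sided p values adjusted by Benjamini-Hochberg across the 31042 that remained. Each gene was represented by its brightest probe set on average. The 95% intervals come from the same fit. Pairs of members were correlated with group means removed and tested with all 14400 permutations within groups. Pairs with Rhbg could not be formed, which left 36. The methods were tested on simulated data. Alternatives covered filtering, scaling, weights, the prior, RNA quality, the replicate number and each array left out.

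The members, lists and tests were chosen with earlier results of these data known. Named were all members, up to 4 genes of each list with the smallest p, and the 5 genes most like and most unlike Glul and Hal. Replicate numbers were not taken as pairs, since same-numbered animals correlated between -0.070 and 0.094.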

Additional observations from a re-analysis of the deposited data

Results flagged for a closer look

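One animal stood apart from its group by the gap to its nearest neighbour over the range of the group. Control animal 5 read 11.66 on the Glul probe set 1367632_at, with the other controls at 11.22 to 11.34. On the brightest Glul probe set it read 11.46, the highest control, with the others at 11.28 to 11.41. Of 78 groups of 5 animals examined, 1 was apart in this way, where 1 in 20, or 3.90, is given by chance.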

How the results depend on the processing

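All alternatives were planned. The count of 0 member probe sets past the threshold held under each alternative, with 0.746 as the lowest adjusted p, and so did 0 pairs past the threshold wherever pairs were tested (they were not tested with RNA quality or the replicate number removed). Over all probe sets the count was 0, and 0 to 1 on leaving out single animals, with the 1 when exposed animal 1 was left out. At an unadjusted p under 0.05 there was 1 member probe set, 0 to 2 on leaving out single animals, and among all probe sets 1695 (1278 to 2065), or 827 with a filter on low values, which tests fewer. The median difference was -0.097 to -0.023 for pericentral and -0.057 to 0.11 for periportal members on leaving out single animals. The median r between zones was 0.14 with the replicate number as a block, and -0.11 to 0.33 on leaving out single animals, the highest without control animal 5. The cause was not tested. The replicate block changed no call.

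Of 267 values of member differences under alternatives, 247 kept their sign. Jup and Cdh2, given below beside the members, are cadherin adhesion genes that this count leaves out. Centring each array turned Glul 1367633_at to -0.017 and Jup to -0.014, and quantile normalization turned Glul 1386870_at to 0.0036. With RNA quality as a covariate Glul 1367632_at was 0.00022, Glul 1367633_at -0.055, Cdh2 0.036 and Jup -0.0096. Leaving out single animals gave -0.10 to 0.011 for Glul 1367632_at, -0.048 to 0.044 for Glul 1367633_at, -0.077 to 0.23 for Oat, -0.11 to 0.0049 for Tbx3 1377230_at, -0.14 to 0.041 for Tbx3 1381464_at, -0.10 to 0.11 for Hal, -0.16 to 0.016 for Cdh2 and -0.057 to 0.046 for Jup. Signal over background is unknown, so dim probe sets such as that of Lgr5 may not have measured their transcripts.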
